A study of Mus musculus with 12 samples.

Results

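The genes described here are 10 members of the system that cuts and protects the extracellular matrix, taken from 31053 genes listed in each library: the 4 tissue inhibitors of metalloproteinases (Timp1, Timp2, Timp3 and Timp4) and 6 matrix metalloproteinases (Mmp2, Mmp3, Mmp12, Mmp14, Mmp19 and Mmp23). They were listed by name with earlier results of these data known. Timp1 was chosen by its shift in level in preadipocytes, so the values of Timp1 in preadipocyte-like cells are given as a description with no test. Single-cell RNA libraries were made from the stromal vascular fraction (SVF, the cells left once adipocytes have floated off) of epididymal and inguinal white adipose tissue (eWAT and iWAT) of male mice at 12 weeks of age. There were 3 groups with 2 mice per group and depot, 12 libraries in all: lean C57BL/6J mice given vehicle (WT-Veh), obese Lepob/Lepob mice given vehicle (ob/ob-Veh) and Lepob/Lepob mice given the PPARγ agonist rosiglitazone (ob/ob-Rosi). Rosiglitazone was dosed at 30 mg/kg, or methylcellulose alone, by gavage every morning and evening over 3 days. Lepob/Lepob mice carry a null allele of leptin in every cell from conception, so obesity and the lack of leptin cannot be told apart, and no lean mice given rosiglitazone are among the libraries. Biopsies from several places of a depot were pooled per mouse and digested with type II collagenase.

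Matrix metalloproteinases are zinc enzymes that cleave collagens, laminins and proteoglycans of the matrix, and most are made as inactive proenzymes that are activated outside the cell. The TIMPs bind the active site of these enzymes and block it. In adipose tissue the matrix around adipocytes is remodelled as fat cells enlarge or form anew, and adipocyte progenitor cells (APCs), macrophages and endothelial cells are among the stromal sources of enzymes or inhibitors.

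Coordinates of the members are on GRCm38 (mm10). Timp1 lies on chrX:20870166-20874735 (plus strand), inside Syn1, which is read from the opposite strand. Timp2 lies on chr11:118301069-118355740 (minus strand) and overlaps Cep295nl on the same strand, so reads of those genes could be split between them and Timp2 counts are uncertain to that extent. Timp3 lies on chr10:86300372-86349506 (plus strand) inside Syn3, and Timp4 on chr6:115241892-115252205 (minus strand) inside Syn2, both read from the opposite strand, so each of the 3 TIMP genes Timp1, Timp3 and Timp4 sits within a synapsin gene. Mmp3 (chr9:7445822-7455975, plus strand) and Mmp12 (chr9:7344381-7369499, plus strand) lie in the metalloproteinase cluster of chromosome 9. The other enzymes lie on chr8:92827291-92853420 (Mmp2, plus strand), chr14:54431612-54445364 (Mmp14, plus strand), chr10:128790910-128800824 (Mmp19, plus strand) and chr4:155650655-155653384 (Mmp23, minus strand).

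The promoters of 3 members with wide differences between groups in APCs, Timp1, Mmp3 and Mmp12, are shown with that of Timp2, which was not called in APCs, so that the letters around their start sites can be compared. Each runs 5′ to 3′ from 250 bases before to 50 bases after the start site in RefSeq (GRCm38.p6), at chrX:20869916-20870215 (plus strand, Timp1), chr9:7445572-7445871 (plus strand, Mmp3), chr9:7347124-7347423 (plus strand, the downstream of both listed start sites of Mmp12) and chr11:118355362-118355661 (minus strand, Timp2). Capitals mark the string TGAGTCA and its variant TGAGTAA, each searched on both strands, and the TATA box TATAAA, searched on the printed strand.
Timp1: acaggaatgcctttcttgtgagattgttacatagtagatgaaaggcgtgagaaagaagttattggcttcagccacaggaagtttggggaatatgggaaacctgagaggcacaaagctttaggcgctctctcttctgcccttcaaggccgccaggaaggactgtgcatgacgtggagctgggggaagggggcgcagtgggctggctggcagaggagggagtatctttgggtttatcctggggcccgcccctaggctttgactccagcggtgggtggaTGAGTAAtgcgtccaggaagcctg
Mmp3: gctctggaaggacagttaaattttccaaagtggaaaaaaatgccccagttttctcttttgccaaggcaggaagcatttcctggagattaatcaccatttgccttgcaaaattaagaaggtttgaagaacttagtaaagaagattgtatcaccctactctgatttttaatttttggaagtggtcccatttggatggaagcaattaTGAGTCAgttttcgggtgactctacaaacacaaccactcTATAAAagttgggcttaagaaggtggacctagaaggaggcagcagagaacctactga
Mmp12: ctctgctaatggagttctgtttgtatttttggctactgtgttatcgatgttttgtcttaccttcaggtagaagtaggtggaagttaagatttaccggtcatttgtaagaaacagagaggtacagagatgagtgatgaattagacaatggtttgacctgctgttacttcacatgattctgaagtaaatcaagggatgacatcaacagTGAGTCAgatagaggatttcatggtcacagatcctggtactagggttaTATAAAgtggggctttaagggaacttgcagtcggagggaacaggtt
Timp2: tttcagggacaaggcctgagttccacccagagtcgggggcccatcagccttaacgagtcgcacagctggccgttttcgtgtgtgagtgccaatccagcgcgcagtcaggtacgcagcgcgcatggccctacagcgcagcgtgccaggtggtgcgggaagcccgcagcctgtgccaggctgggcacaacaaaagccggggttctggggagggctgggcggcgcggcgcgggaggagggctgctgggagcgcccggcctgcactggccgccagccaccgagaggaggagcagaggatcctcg
Mmp3 and Mmp12 each held 1 TGAGTCA, a letter string known as an AP-1 site, 46 and 44 bases before the listed start site, and 1 TATAAA, which begins 7 bases before the start site of Mmp3 and 4 bases after that of Mmp12. The window of the other listed start site of Mmp12 held neither string. Of 32851 promoters of this length, 1709 (5.2%) held TGAGTCA, while 2.68% held the variant TGAGTAA and 8.32% the TATA box. Timp1 held 1 TGAGTAA, 26 bases after its start site. GGGCGG, the GC box, searched on both strands and not capitalised, was in 35.7% of promoters, in Timp1 and Timp2 once each, and in neither Mmp3 nor Mmp12. RefSeq promoters were at hand for 8 of the 10 members, all but Mmp2 and Mmp19, and these strings are a description of letters in 1 window.

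Libraries held 20132553 to 92475986 unique molecular identifiers (UMIs, which count captured mRNA molecules), and 57613 cells of eWAT and 68482 cells of iWAT were kept. The median mitochondrial share of kept cells was 9.05% and 8.06% in the ob/ob-Veh libraries of iWAT and 2.17% to 5.89% in the others of iWAT. It was 3.34% to 6.12% in eWAT, and its part in the values below was not tested. Cells were clustered without the 10 members or the 75 genes of the wider list given below. Where members are said to be allowed among the genes clustered, the list genes were let in too. Clusters were given class names from marker lists, such as progenitor-like (Pi16, Dpp4), preadipocyte-like (Icam1, Cd36), endothelial-like (EC), perivascular macrophage-like (PVM) and lipid-associated macrophage-like (LAM). Levels are CPM, the UMIs of a gene in a class and library scaled to the same total, and such 3′ counts need no correction for gene length. Differences are log2 differences from edgeR, a count test, for ob/ob-Veh against WT-Veh (the ob/ob effect) and ob/ob-Rosi against ob/ob-Veh (the Rosi effect), which share the ob/ob-Veh libraries. A gene that passed, or was called, had an adjusted p of 0.05 or less and a difference of 1.1-fold or more. The iWAT library labelled WT-Veh 1 stood apart, with 12722 of 17063 cells left unnamed, 128 progenitor-like cells and 176 preadipocyte-like cells. Lep, whose ob allele is still transcribed, stood at 20.1 to 42.5 UMIs per 100 Adipoq UMIs in libraries labelled WT-Veh, 3.95 to 36.4 under the ob/ob-Veh label, and 141 to 390.1 under the ob/ob-Rosi label, and obese mice are known for high Lep mRNA. The ob/ob-Veh values rest on 4 to 43 Lep and 11 to 265 Adipoq UMIs per library and overlapped those of WT-Veh. Those of ob/ob-Rosi rest on 60 to 277 Lep and 25 to 140 Adipoq UMIs, and those of WT-Veh on 33 to 83 and 87 to 263. Groups are named as labelled throughout. WT-Veh and ob/ob-Rosi libraries shared clusters of APCs that held few ob/ob-Veh cells: of the 5323 ob/ob-Veh preadipocyte-like cells of eWAT, 5042 were in clusters that held 17 cells of the other 4 libraries. Between any pair of libraries at most 99 cell barcodes (1.05% of the smaller library) were shared. The size of the barcode pool would give 46.0 for that pair, eWAT ob/ob-Rosi 1 and iWAT WT-Veh 1. The libraries eWAT ob/ob-Veh 1 and iWAT ob/ob-Rosi 1 shared 94 against 25.3 from the pool, and the cause of these excesses was not tested.

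The members divided among the cell classes in much the same way in both depots, as the heat map of mean levels shows. Timp2 led in progenitor-like cells (mean 3746 ± 635 CPM in eWAT and 3918 ± 798 CPM in iWAT, SD, n = 6 libraries), and Mmp23 led in the same class (293 ± 48.3 and 239 ± 31.3 CPM). Of the classes ranked, those with 20 or more cells in at least 4 libraries of a depot, Timp3 and Timp4 led in EC-like cells. Mmp2, Mmp3 and Mmp14 led in preadipocyte-like cells, and Mmp12 and Mmp19 in LAM-like cells. Mean Timp1 was 509 ± 483 CPM in the progenitor-like class of eWAT and 491 ± 409 CPM in its preadipocyte-like class, an order that the spread over libraries does not separate, and 90.7 ± 35.9 CPM in preadipocyte-like cells of iWAT, where progenitor-like cells held 18.5 ± 7.56 CPM. Leading classes of eWAT within 1 SD of each other were also LAM-like, NPVM-like (non-perivascular macrophage-like) and proliferating-like cells for Mmp12, these and preadipocyte-like cells for Mmp19, and progenitor-like, preadipocyte-like and mesothelial-like cells for Mmp23.

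**Figure D1:**
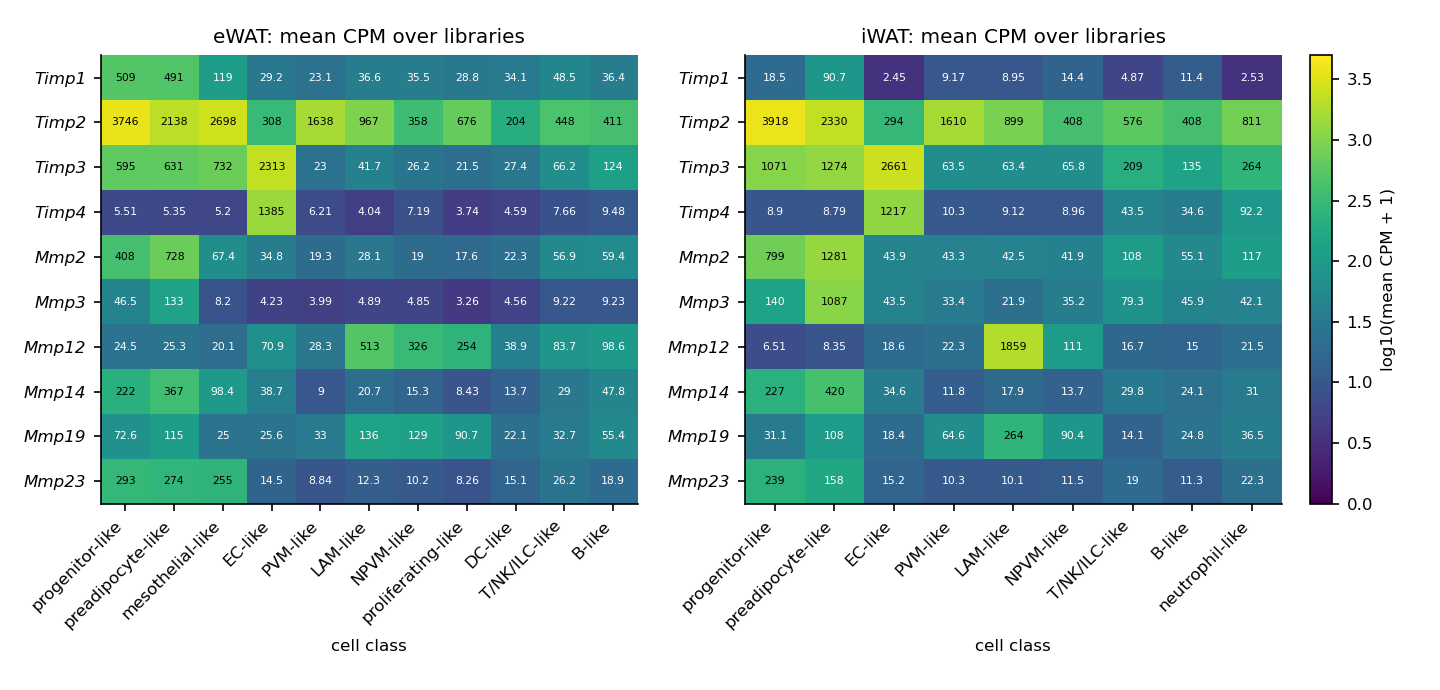
Mean CPM of the 10 genes (rows) in each cell class (columns) of eWAT and iWAT over the libraries with at least 20 cells of the class, with colour on a log scale. Timp4 is nearly limited to EC-like cells, Timp2 is high in progenitor-like, preadipocyte-like and PVM-like cells, and Mmp12 is highest in LAM-like cells.

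Timp1, an inhibitor that is strongly induced in many injured or inflamed tissues, differed between groups in APCs of eWAT. In preadipocyte-like cells of eWAT it stood at 926 and 499 CPM under the WT-Veh label, 29.0 and 28.2 CPM under the ob/ob-Veh label, and 505 and 958 CPM under the ob/ob-Rosi label. Both ob/ob-Veh libraries lay far below the other 4, which overlapped one another. The level was 26.6-fold lower in ob/ob-Veh than in WT-Veh (log2 difference -4.73, SE 0.45) and 26.9-fold higher in ob/ob-Rosi than in ob/ob-Veh (4.75), values that chose the gene. The share of preadipocyte-like cells with a Timp1 UMI was 42.1% and 40.6%, 10.2% and 10.1%, and 38.3% and 60.7% (groups as before). With each cell thinned to 700 UMIs it was 27.9% and 15.04%, 1.84% and 1.92%, and 15.3% and 26.2%. B-like cells, which should lack the transcript, held 5.63% and 8.51%, 0% and 1.79%, and 3.33% and 1.96% after thinning. The thinned ob/ob-Veh shares of preadipocyte-like cells lay near the 1.79% of B-like cells in ob/ob-Veh 2, a share of only 56 cells, and above the 0% in ob/ob-Veh 1. They were above those of NPVM-like (1.32% and 1.52%), EC-like (0.410% and 0.525%) and PVM-like cells (0.106% and 0.0546%). Before thinning, B-like cells of ob/ob-Veh held 0% and 3.57%. The 0% stands for 0 of 99 cells, which allows a share of up to 3.03%, and limits of this kind cover counting error only. Median depth per cell was 1333 to 5970 UMIs in preadipocyte-like and 1259 to 3257 UMIs in B-like cells. In the 1 preadipocyte-like cluster that held over 20 cells of every library (29 to 147 cells each), Timp1 was 717 and 226 CPM in WT-Veh, 11.9 and 8.94 CPM in ob/ob-Veh and 364 and 1118 CPM in ob/ob-Rosi. These cells are part of the class whose values chose the gene.

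Progenitor-like cells, which the choice of Timp1 did not use but which come from the same mice and libraries, showed the shift as well. Timp1 was 849 and 496 CPM in WT-Veh, 40.1 and 19.7 CPM in ob/ob-Veh and 382 and 1269 CPM in ob/ob-Rosi, so the ob/ob-Veh libraries again lay apart. It fell 21.9-fold in ob/ob-Veh against WT-Veh (log2 difference -4.45, SE 0.56, edgeR adjusted p = 0.000241) and rose 26.7-fold in ob/ob-Rosi against ob/ob-Veh (4.74, SE 0.57, edgeR adjusted p = 0.000131). Both comparisons use the same ob/ob-Veh libraries. Both were called under all 14 alternative settings and left-out libraries, with log2 differences of -3.93 to -5.21 and 3.62 to 5.49 when 1 library was left out. The clusters behind these values differ, since 513 of 522 WT-Veh and 472 of 486 ob/ob-Rosi cells came from a cluster led by Sfrp4, Mfap4 and Cilp, and 1959 of 1970 ob/ob-Veh cells from another. Every fall or rise given below for progenitor-like cells of eWAT compares these same different clusters.

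Timp1 moved in the same direction in cells that carry little of it. In EC-like cells of eWAT it was 60.6 and 33.5 CPM in WT-Veh, 4.79 and 3.16 CPM in ob/ob-Veh and 36.6 and 36.9 CPM in ob/ob-Rosi, a fall (log2 difference -3.69, SE 0.43, edgeR adjusted p = 0.00133) and a rise (3.35, SE 0.43, edgeR adjusted p = 0.0017). In PVM-like cells it was 57.5 and 18.3, 2.52 and 2.57, and 25.6 and 32.3 CPM (16.0-fold lower, edgeR adjusted p = 0.00375, and a log2 difference of 3.62, edgeR adjusted p = 0.00899). The first was -2.92 without WT-Veh 1 and -4.62 without WT-Veh 2, and the second was not called without ob/ob-Veh 1 (3.61), ob/ob-Veh 2 (3.57) or ob/ob-Rosi 2 (3.42). These PVM-like groups sit in different clusters, since 3615 of 3726 ob/ob-Veh cells were in a cluster that held 56 cells of the other libraries. Timp1 also fell and rose in dendritic-like cells (-2.16 and 2.05, where 0.655% of genes fell and 0.698% rose) and in T/NK/ILC-like cells (-3.04 and 3.99, where 1.97% fell and 2.31% rose). DESeq2 did not call the fall in dendritic-like cells. In LAM-like cells Timp1 was 49.6 and 22.2 CPM in WT-Veh, 29.7 and 22.1 CPM in ob/ob-Veh and 26.8 and 69.1 CPM in ob/ob-Rosi, groups that overlapped. Beside these levels, 10 APC markers such as Dcn and Col1a1 summed to 1234 to 3533 CPM in EC-like, PVM-like and LAM-like cells of eWAT. Per 1000 UMIs of those markers, preadipocyte-like cells held 17.0 and 7.43 Timp1 UMIs in WT-Veh, 0.464 and 0.426 in ob/ob-Veh and 8.04 and 15.1 in ob/ob-Rosi. EC-like cells held 17.2 and 11.5, 1.45 and 0.995, and 13.6 and 13.9. In PVM-like cells the ratio was 25.4 and 13.8, 1.47 and 1.34, and 15.5 and 26.2. The ob/ob-Veh libraries were lowest on this ratio in EC-like and PVM-like cells as in APCs, while in LAM-like cells they stood at 12.8 and 8.75, overlapping the 9.32 to 27.4 of the other libraries. The part of free APC RNA in the Timp1 differences outside APCs was not tested.

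**Figure D2:**
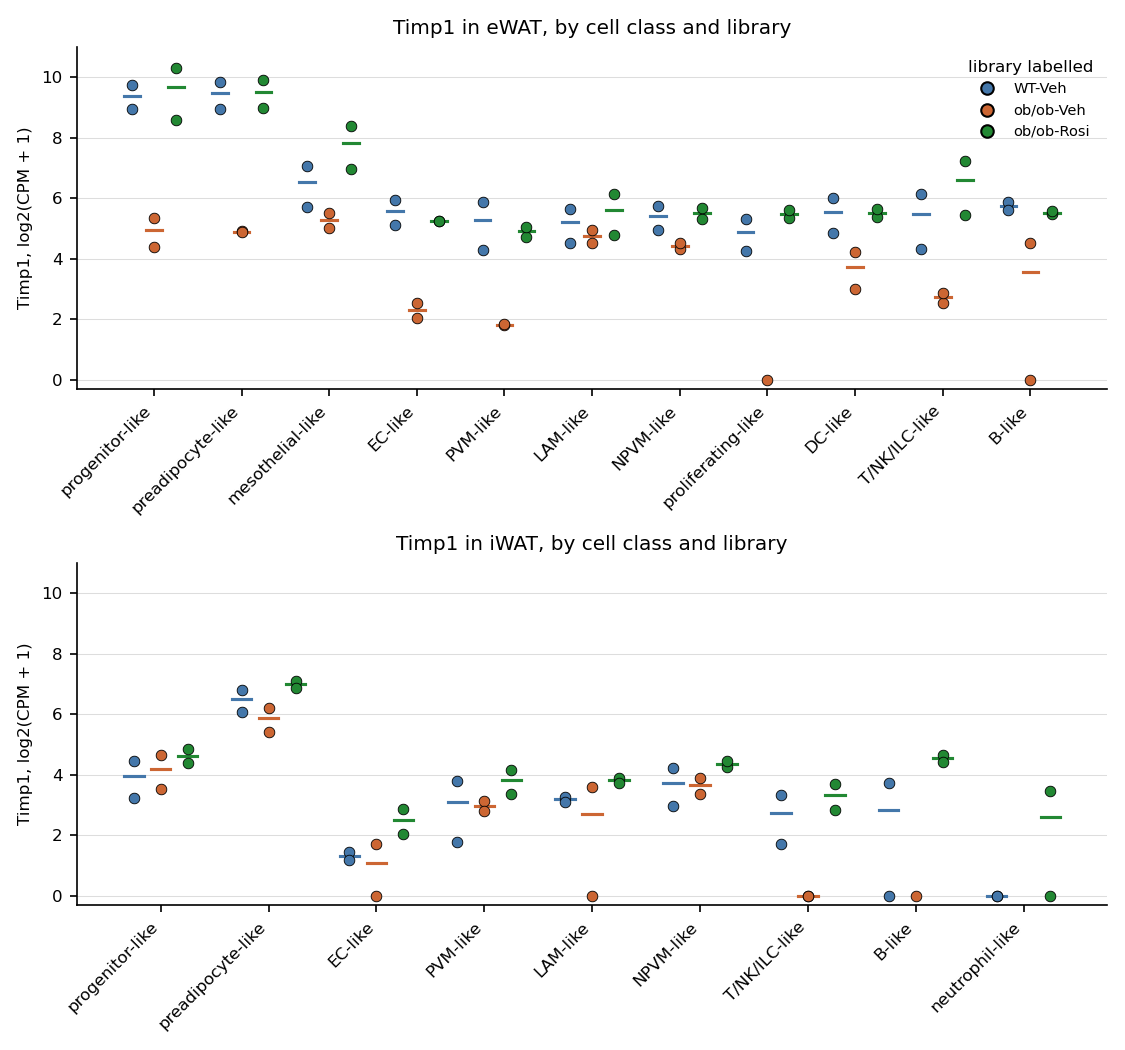
Timp1 level, log2(CPM + 1), in each cell class of eWAT and iWAT, with 1 point per library coloured by group and a bar at the group mean. In eWAT the ob/ob-Veh points of both APC classes lie between 19.7 and 40.1 CPM and the others between 382 and 1269 CPM, whereas the iWAT groups lie close together.

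**Figure D3:**
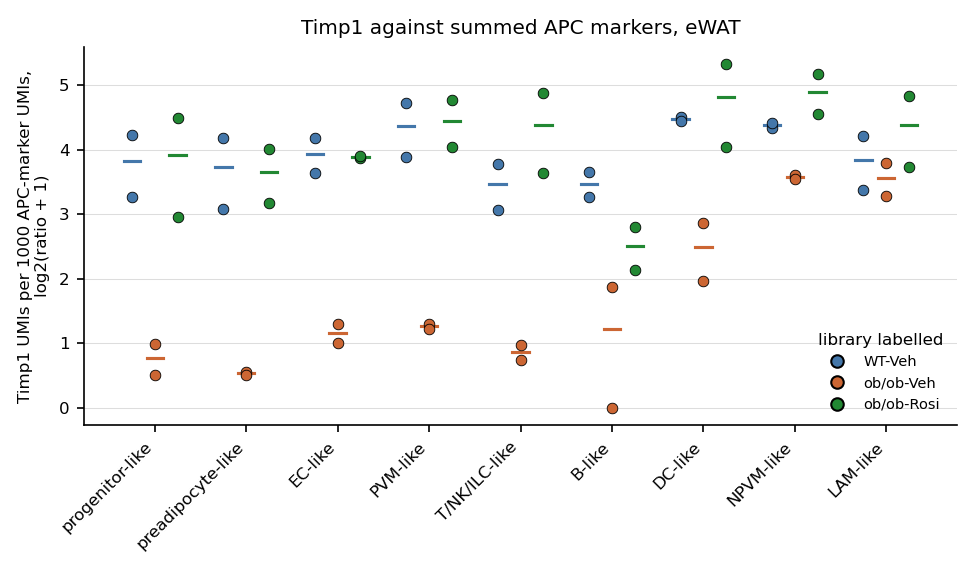
Timp1 UMIs per 1000 UMIs of 10 APC markers, log2(ratio + 1), by cell class of eWAT, with 1 point per library and a bar at the group mean. The ob/ob-Veh points are near 1 or below in preadipocyte-like, progenitor-like, T/NK/ILC-like and EC-like cells and at 8.75 and 12.8 in LAM-like cells.

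In iWAT Timp1 was low. Preadipocyte-like cells held 111 and 66.5 CPM in WT-Veh, 73.5 and 41.5 CPM in ob/ob-Veh and 137 and 115 CPM in ob/ob-Rosi (log2 differences -0.65, SE 0.38, and 1.21, SE 0.37, with no test). The first ran from -1.17 to -0.23 with 1 library left out and changed sign when members were allowed among the genes clustered. The WT-Veh and ob/ob-Veh ranges overlapped, and both ob/ob-Rosi libraries were highest. Progenitor-like cells held 20.7 and 8.42, 23.9 and 10.5, and 27.7 and 20.01 CPM, with overlap of all groups. The effect of the ob/ob label on progenitor-like Timp1 differed between depots by 4.94 on the log2 scale (iWAT minus eWAT, SE 0.90, edgeR adjusted p = 0.0112) and the Rosi effect by -4.16 (SE 0.83, edgeR adjusted p = 0.0194), where 1.66% and 1.76% of genes tested passed. The difference of the ob/ob effect did not pass without the eWAT library WT-Veh 1, the iWAT library WT-Veh 2 or the iWAT library ob/ob-Veh 1, each left out in turn. That of the Rosi effect did not pass without ob/ob-Veh 2 or ob/ob-Rosi 2 of eWAT (-3.68 and -3.07) or ob/ob-Veh 1 or ob/ob-Rosi 2 of iWAT (-3.35 and -3.94).

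Timp2, which besides blocking enzymes takes part in the activation of pro-Mmp2 at the cell surface with Mmp14, was the most abundant inhibitor of APCs and was not called in them. In progenitor-like cells of eWAT it was 3310 and 3834 CPM in WT-Veh, 4381 and 4605 CPM in ob/ob-Veh and 3082 and 3262 CPM in ob/ob-Rosi. The ob/ob-Veh libraries were the highest, but the difference from WT-Veh (0.32, SE 0.24) did not pass (edgeR adjusted p = 0.524). Preadipocyte-like cells of eWAT held 1613 and 2082, 2755 and 2683, and 1781 and 1913 CPM (0.49, SE 0.23, edgeR adjusted p = 0.248). In iWAT the ob/ob-Veh libraries were again the highest in preadipocyte-like cells, with 1524 and 2044, 3750.2 and 2567, and 1907 and 2187 CPM. The ob/ob difference there (0.78) was not called either, though its unadjusted edgeR p was under 0.05. PVM-like cells of eWAT held 1249 to 1936 CPM, close to the level of preadipocyte-like cells.

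Timp3, the inhibitor that binds to the matrix, led in EC-like cells among the classes ranked, at 953 and 1990.2 CPM in WT-Veh, 2786 and 3927 CPM in ob/ob-Veh and 1638 and 2585 CPM in ob/ob-Rosi of eWAT. The WT-Veh libraries were lower than the ob/ob-Veh libraries, and the difference was not called by edgeR, while DESeq2 called it. The lymphatic EC-like class, which was not ranked since 3 libraries had hardly any, held more Timp3, at 1690.1 CPM in WT-Veh 1 and 5530.2 and 5814 CPM in ob/ob-Veh, on 33, 37 and 64 cells. Progenitor-like cells of eWAT showed the opposite order to Timp1, with 312 and 466 CPM in WT-Veh, 880.3 and 1065 CPM in ob/ob-Veh and 442 and 402 CPM in ob/ob-Rosi. Timp3 rose 2.48-fold in ob/ob-Veh (log2 difference 1.31, SE 0.28, edgeR adjusted p = 0.0122) and fell with Rosi (-1.17, SE 0.28, edgeR adjusted p = 0.022). The first call was lost without any 1 of the 4 libraries compared (1.11 to 1.58), the second without ob/ob-Veh 1, ob/ob-Veh 2 or ob/ob-Rosi 2, and both with finer clusters (0.89 and -0.61) or members allowed among the genes clustered (0.89 and -0.59). The first was also lost with thinned cells (1.19). Preadipocyte-like cells gave no such pattern, with 206 and 710.5, 686 and 911, and 216 and 1058 CPM, where replicate 1 was below replicate 2 in each group.

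Timp4, an inhibitor with a narrow tissue range, belonged to EC-like cells, which held 88.9% to 95.8% of all Timp4 UMIs in the eWAT libraries and 94.0% to 95.1% in iWAT apart from WT-Veh 1 (45.6%). Its levels in EC-like cells of eWAT were 861 and 1521 CPM in WT-Veh, 1074 and 1867 CPM in ob/ob-Veh and 1212 and 1775 CPM in ob/ob-Rosi. These groups overlapped. In EC-like cells of iWAT it was 716 and 1552, 970.2 and 1146, and 1334 and 1582 CPM, where both ob/ob-Rosi libraries lay above both ob/ob-Veh libraries and WT-Veh overlapped the others, and no difference was called by edgeR. Timp4 did not pass the filter on low counts in progenitor-like cells of eWAT. It was called for the Rosi effect in macrophage-like cells, where it is low. NPVM-like cells of eWAT held 3.26 and 13.6 CPM in WT-Veh, 2.07 and 3.60 CPM in ob/ob-Veh and 9.94 and 10.7 CPM in ob/ob-Rosi, on 4 to 26 UMIs per library (1.99, SE 0.57, edgeR adjusted p = 0.0485, where 3.24% of genes rose). DESeq2 did not call Timp4 there. PVM-like cells of iWAT held 6.63 and 11.2 CPM in WT-Veh, 1.61 and 5.02 CPM in ob/ob-Veh and 23.5 and 14.1 CPM in ob/ob-Rosi, a rise with Rosi (2.74, SE 0.53, edgeR adjusted p = 0.0216, where 6.53% of genes rose) that was lost without any 1 of the 4 libraries compared (2.15 to 3.67). LAM-like cells of iWAT held 0 Timp4 UMIs in both ob/ob-Veh libraries, with 45 and 24 cells, and 99 and 94 UMIs in ob/ob-Rosi (edgeR adjusted p = 0.0378, where 7.82% of genes rose), a call made in 5 of 13 alternatives. NPVM-like cells of iWAT held 1.31 and 6.23 CPM in ob/ob-Veh and 20.3 and 13.1 CPM in ob/ob-Rosi (edgeR adjusted p = 0.0276, where 8.35% rose). EC markers in PVM-like cells of iWAT were lowest in ob/ob-Veh too, at 22.7 and 65.5 CPM against 94.2 to 188 CPM in the other libraries, and the part of EC RNA in these values was not tested.

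Among the enzymes, Mmp3 (stromelysin-1, which cleaves proteoglycans, laminin and other proenzymes) fell in ob/ob-Veh in progenitor-like cells of eWAT and rose in those of iWAT. In preadipocyte-like cells of eWAT it was 170.0 and 133 CPM in WT-Veh, 13.04 and 5.48 CPM in ob/ob-Veh and 212 and 267 CPM in ob/ob-Rosi. Both ob/ob-Veh libraries lay below the rest, with a 16.9-fold fall (log2 difference -4.08, SE 0.45, edgeR adjusted p = 0.00088) and a 26.6-fold rise with Rosi (4.73, SE 0.46, edgeR adjusted p = 0.000452), which were -4.97 and 5.61 without ob/ob-Veh 1 and -3.55 and 4.201 without ob/ob-Veh 2. In progenitor-like cells of eWAT it was 81.4 and 68.7, 2.74 and 0.266, and 95.0 and 30.8 CPM. The ob/ob-Veh values rest on 29 UMIs and 1 UMI, and the log2 differences were -5.19 (SE 0.58, edgeR adjusted p = 8.42e-05) and 5.01 (SE 0.58, edgeR adjusted p = 0.000101). Both of these lost their call when the members were allowed among the genes clustered (-1.06 and 1.71), and held under the other 13 settings, with values of -7.82 and 7.62 without ob/ob-Veh 1 and of 3.89 for the Rosi effect without ob/ob-Rosi 1. In iWAT, progenitor-like cells held 41.5 and 33.6 CPM in WT-Veh, 357 and 304 CPM in ob/ob-Veh and 61.8 and 42.9 CPM in ob/ob-Rosi, so here the ob/ob-Veh libraries were the highest. Mmp3 rose 8.42-fold (3.07, SE 0.31, edgeR adjusted p = 0.00398) and fell 5.74-fold with Rosi (-2.52, SE 0.29, edgeR adjusted p = 0.00352). Neither call passed without ob/ob-Veh 1, with log2 differences of 2.88 and -2.34.

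The level of Mmp3 in preadipocyte-like cells of iWAT was higher than in eWAT in every group, at 840 and 588 CPM in WT-Veh, 1485 and 1098 CPM in ob/ob-Veh and 1654 and 859 CPM in ob/ob-Rosi, and the groups did not differ past the threshold (0.81, SE 0.41, edgeR adjusted p = 0.341 for ob/ob). The difference between depots passed in progenitor-like cells for the ob/ob effect (8.32, SE 0.79, edgeR adjusted p = 0.000117) and the Rosi effect (-7.57, SE 0.77, edgeR adjusted p = 0.000206), and in preadipocyte-like cells (4.97 and -4.75, edgeR adjusted p = 0.0215 and 0.0212), where 0.129% and 0.236% of genes passed. In progenitor-like cells these passed with each library left out in turn, at 11.2 and -10.4 without the eWAT library ob/ob-Veh 1 and -6.46 for the Rosi effect without the eWAT library ob/ob-Rosi 1. No depot difference was recomputed with other clusterings, thinned cells or doublets removed. In preadipocyte-like cells neither passed without ob/ob-Veh 2 of eWAT or either ob/ob-Veh library of iWAT. Of the 5282 progenitor-like cells of ob/ob-Veh in iWAT, 5260 came from clusters that held 78 cells of the other libraries. A list of 15 early response genes such as Fos, Jun and Egr1, known to rise during digestion, summed to 3105 to 7146 CPM in WT-Veh and ob/ob-Rosi and to 18169 and 16754 CPM in ob/ob-Veh progenitor-like cells of eWAT, and to 11793 to 19936 CPM in those of iWAT, and their part in the values of the members was not tested.

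**Figure D4:**
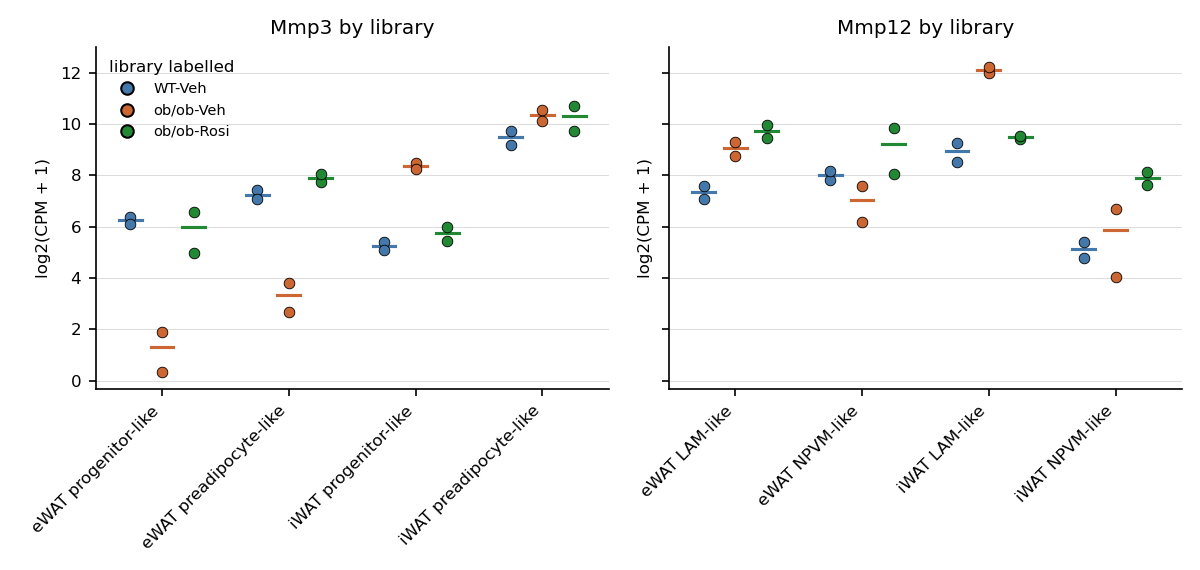
Mmp3 in both APC classes and Mmp12 in LAM-like and NPVM-like cells of both depots, log2(CPM + 1), with 1 point per library and a bar at the group mean. The ob/ob-Veh points of Mmp3 are lowest in eWAT and highest in iWAT progenitor-like cells, and those of Mmp12 are highest in LAM-like cells of iWAT.

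Mmp12, the macrophage elastase, had its highest mean level in LAM-like cells, although in ob/ob-Veh of eWAT more of its UMIs came from NPVM-like cells (381 and 529) than from LAM-like cells (117 and 453). In eWAT LAM-like cells held 193 and 136 CPM in WT-Veh, 434 and 626 CPM in ob/ob-Veh and 996 and 692 CPM in ob/ob-Rosi. The WT-Veh libraries were the lowest, and Mmp12 was higher in ob/ob-Veh (log2 difference 1.497, SE 0.29, edgeR adjusted p = 0.0122, where 1.13% of genes were) and in ob/ob-Rosi (2.36, SE 0.29, edgeR adjusted p = 0.00152, where 0.0158% were) than in WT-Veh. The first of these rests on 69 and 116 LAM-like cells in ob/ob-Veh, against 1872 to 5341 in the other libraries, and was lost without WT-Veh 2 (log2 difference 1.196), ob/ob-Veh 1 (1.68) or ob/ob-Veh 2 (1.22), and with cells thinned to 700 UMIs (0.73). The share of these cells with an Mmp12 UMI was 13.5% and 15.01% in WT-Veh, 8.70% and 16.4% in ob/ob-Veh and 34.6% and 48.1% in ob/ob-Rosi, so WT-Veh and ob/ob-Veh overlapped on it. Thinned, it was 5.75% and 4.54%, 1.45% and 10.3%, and 18.2% and 16.3%. The cluster that Mmp12, Gpnmb and Atp6v0d2 lead held 326 and 284 CPM in WT-Veh and 1845 and 1252 CPM in ob/ob-Rosi, and 6 and 15 cells of ob/ob-Veh. In iWAT the order differed, with 620.2 and 371 CPM in WT-Veh, 4011 and 4717 CPM in ob/ob-Veh and 689 and 745 CPM in ob/ob-Rosi. Both ob/ob-Veh libraries, with 45 and 24 LAM-like cells, lay above the rest (2.65, SE 0.34, edgeR adjusted p = 0.00125, where 4.36% of genes were higher), and Mmp12 was lower with Rosi (-2.08, SE 0.34, edgeR adjusted p = 0.00177, where 4.16% were lower). The 10 LAM markers summed to 5521 and 8326 CPM there, against 13515 to 16262 CPM in the other LAM-like sums of iWAT, and APC markers to 7760.4 and 3628 CPM against 1518 to 2741 CPM. The CPM of ob/ob-Veh rests on few cells with a UMI, since 35.6% of 45 and 16.7% of 24 LAM-like cells held an Mmp12 UMI there, against 36.4% and 23.96% in WT-Veh and 39.05% and 37.3% in ob/ob-Rosi, shares that overlapped. Thinned, they were 24.5% and 11.9%, 31.1% and 16.7%, and 17.9% and 18.6%. Neither difference was called without ob/ob-Veh 1 (2.68 and -2.099), thinned to 700 UMIs per cell (0.89 and -0.89) or with finer clusters (3.38 and -2.62), nor was the second when members were allowed among the genes clustered (-2.70). The Rosi effect in LAM-like cells differed between depots by -2.94 (SE 0.44, edgeR adjusted p = 0.00928), where 0.621% of genes passed, and did not pass without the iWAT library ob/ob-Veh 1 (-2.955).

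In preadipocyte-like and EC-like cells of eWAT, Mmp12 was lowest in ob/ob-Veh and highest in ob/ob-Rosi. Preadipocyte-like cells held 22.1 and 9.23, 3.01 and 4.55, and 57.0 and 56.0 CPM, a fall (-2.16, SE 0.42, edgeR adjusted p = 0.0134) and a rise (3.99, SE 0.43, edgeR adjusted p = 0.000789). The fall was lost without WT-Veh 1 (-1.31) or ob/ob-Veh 1 (-1.97). EC-like cells held 37.5 and 27.9, 0.684 and 3.44, and 198 and 158 CPM (-3.73, edgeR adjusted p = 0.00156, and 6.17, edgeR adjusted p = 2.01e-05), which were -5.50 and 7.94 without ob/ob-Veh 2. The 10 LAM markers moved along with these values, at 2897 and 2482 CPM in WT-Veh, 583 and 712 CPM in ob/ob-Veh and 2360.5 and 2778 CPM in ob/ob-Rosi preadipocyte-like cells. Per 1000 LAM-marker UMIs, Mmp12 in those cells was 7.64 and 3.72, 5.17 and 6.39, and 24.1 and 20.1, so WT-Veh and ob/ob-Veh overlapped on that ratio and ob/ob-Rosi stayed above. The part of macrophage RNA in Mmp12 of other classes was not tested.

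Mmp2 (gelatinase A, which cleaves denatured collagen and collagen of basement membranes) had the highest mean level of the 6 enzymes in APCs. In progenitor-like cells of eWAT it was 427 and 509 CPM in WT-Veh, 166 and 162 CPM in ob/ob-Veh and 452 and 729.7 CPM in ob/ob-Rosi. The ob/ob-Veh libraries were lowest, by 2.86-fold (-1.52, SE 0.31, edgeR adjusted p = 0.00789), and Mmp2 rose with Rosi (1.86, SE 0.31, edgeR adjusted p = 0.00184). The first call was lost without WT-Veh 1 (-1.57), WT-Veh 2 (-1.43) or ob/ob-Veh 2 (-1.41). With finer clusters the differences were -0.47 and 0.94, and with members allowed among the genes clustered -0.58 and 0.997, and none of these was called. Preadipocyte-like cells of eWAT followed the same order less widely, with 616 and 970.4, 459.8 and 521, and 738 and 1061 CPM, and were not called by edgeR, while DESeq2 called the Rosi effect. In iWAT Mmp2 ranged from 691 to 925 CPM in progenitor-like and from 851 to 1610 CPM in preadipocyte-like cells, and the depots differed in progenitor-like cells for both effects (1.70, edgeR adjusted p = 0.0465, and -2.01, edgeR adjusted p = 0.0182), calls that were lost with most of the libraries compared left out in turn (1.55 to 1.86 and -2.11 to -1.64).

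Mmp14 (MT1-MMP, the membrane-bound collagenase that activates pro-Mmp2) was 392 and 463 CPM in WT-Veh, 241 and 255 CPM in ob/ob-Veh and 372 and 479.7 CPM in ob/ob-Rosi in preadipocyte-like cells of eWAT. The ob/ob-Veh libraries did not overlap the others, yet the difference of -0.86 (SE 0.25) missed the threshold (edgeR adjusted p = 0.065, called by DESeq2), as did its lower level in progenitor-like cells, 148 and 172 CPM against 209.8 to 296 CPM elsewhere. In iWAT the ob/ob-Veh libraries were the highest in progenitor-like cells (240.1 and 194, 351 and 283, 137 and 154 CPM), and the Rosi effect on Mmp14 differed between depots (-1.66, SE 0.36, edgeR adjusted p = 0.0314), which was lost in the same way (-1.84 to -1.404).

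Mmp19, a basement-membrane enzyme also made by macrophages, was 117 and 146, 74.1 and 217, and 156 and 103 CPM in LAM-like cells of eWAT and 122 and 118, 104 and 83.9, and 141 and 124 CPM in preadipocyte-like cells. It overlapped between groups in LAM-like cells and was not called in APCs of either depot. In EC-like cells it was 40.8 and 37.3, 10.3 and 4.59, and 27.7 and 33.2 CPM (-2.62, edgeR adjusted p = 0.00556, and 2.25, edgeR adjusted p = 0.0108), calls that were lost without ob/ob-Veh 2 (-1.98 and 1.61), and the second also without ob/ob-Rosi 2 (2.11). The second held in 11 of 14 alternatives. Mmp23, a small membrane-anchored member, varied little between groups in APCs, with 274 and 319, 223 and 288, and 285 and 368 CPM in progenitor-like and 228 to 317 CPM in preadipocyte-like cells of eWAT. It was not called in APCs of either depot.

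The members and the lists below were chosen with earlier results of these data known, so counts of both are a description. Timp1 was picked by its shift in preadipocytes of these libraries. Counted over the members, 5 of the 9 that passed the filter on low counts in progenitor-like cells of eWAT were called for the ob/ob effect. Of these, 1 (Timp3) was higher, where 1.87% of all 9302 genes tested were, and 4 (Timp1, Mmp2, Mmp3 and Mmp12) were lower, where 3.66% were. Mmp12 there was 26.6 and 8.27 CPM in WT-Veh, 3.49 and 2.40 CPM in ob/ob-Veh and 45.9 and 60.2 CPM in ob/ob-Rosi, and its ob/ob call (-2.26) was lost without WT-Veh 1 (-1.31) and with thinned cells (-1.88), being -3.11 without WT-Veh 2. The 5 calls of the ob/ob effect became 2 when members were allowed among the genes clustered and 3 with finer clusters or thinned cells. The Rosi effect uses the same ob/ob-Veh libraries with opposite sign, so its counts in each class are not a separate result. For it the same 5 were called with opposite signs, 4 higher and 1 lower, where 3.63% and 1.84% of genes were. In preadipocyte-like cells of eWAT, 2 of 9 tested without Timp1 (Mmp3 and Mmp12) were lower in ob/ob-Veh, against 4.13% of genes, and the same 2 rose with Rosi, against 4.09%. In EC-like cells 3 of 10 (Timp1, Mmp12 and Mmp19) fell, against 2.06%, and 4 rose with Rosi (Mmp3 as well), against 1.85%. In ob/ob-Veh these 3 rest on few UMIs, 7 and 11 for Timp1, 1 and 12 for Mmp12 and 15 and 16 for Mmp19. The Mmp3 call in EC-like cells rests on 0 UMIs and 1 UMI in ob/ob-Veh and was lost without ob/ob-Veh 1, ob/ob-Veh 2 or ob/ob-Rosi 2 (log2 differences 4.69, 7.27 and 4.07). In PVM-like cells 4 of 10 fell (Timp1, Mmp2, Mmp3 and Mmp19), against 2.12%, and 3 rose with Rosi (Timp1, Mmp12 and Mmp19), against 1.76%. Of these PVM-like calls, those of Timp1 for the ob/ob effect and Mmp12 for the Rosi effect held with each library left out, and the others did not. The part of free RNA from other cells in the EC-like and PVM-like counts was not tested.

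In mesothelial-like cells of eWAT, 0 of 8 members were called by edgeR for the ob/ob effect (3.36% of genes), while 5 had an unadjusted p under 0.05 and DESeq2 called 1 (Mmp12). By edgeR, Timp1, Mmp2 and Mmp12 rose with Rosi (1.48% of genes), while DESeq2 called Timp1, Timp3 and Mmp2 for that effect and not Mmp12. In iWAT 1 member, Mmp3, was called in progenitor-like cells, higher in ob/ob-Veh (0.812% of genes) and lower with Rosi (1.57%). In preadipocyte-like cells of iWAT 0 of 9 were called by edgeR for either effect (0.198% and 4.16% of genes), 1 each at an unadjusted p under 0.05 (Timp2 and Timp4) and 0 by DESeq2. In EC-like cells of iWAT 0 of 10 were called by edgeR for the ob/ob effect (2.88% of genes), 3 at an unadjusted p under 0.05 and 2 by DESeq2 (Mmp23 and Timp2). Mmp12 rose with Rosi there (3.02, 0.857% of genes), a call lost without ob/ob-Veh 1 (3.67) or ob/ob-Veh 2 (1.81), with thinned cells and with doublets removed. In PVM-like cells of iWAT Mmp2, Mmp3, Mmp14 and Mmp23 rose in ob/ob-Veh (log2 differences 2.25, 2.99, 2.55 and 2.55), against 3.74% of genes. Different clusters are compared there, as 4862 of 4938 ob/ob-Veh cells were in a cluster with 77 cells of the other libraries. APC markers in those cells moved with them, at 965 and 981 CPM in WT-Veh, 6953 and 6458 CPM in ob/ob-Veh and 2058 and 2262 CPM in ob/ob-Rosi, and per 1000 APC-marker UMIs Mmp2 was 10.4 and 16.2, 9.97 and 11.4, and 16.5 and 24.98. These 4 calls were lost without either ob/ob-Veh library. With Rosi, Mmp23 fell in those cells, from 21.7 and 20.5 CPM to 4.94 and 8.24 CPM (-1.48, SE 0.34, edgeR adjusted p = 0.0327, where 5.71% of genes fell), and Timp4 rose as given above. The fall of Mmp23 was lost without any 1 of the 4 libraries compared (-1.14 to -1.93).

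Between ob/ob-Rosi and WT-Veh, 0 members were called by edgeR in progenitor-like or preadipocyte-like cells of either depot, as were 0% of genes. In eWAT 1 member (Mmp12) had an unadjusted p under 0.05 in each of these classes and DESeq2 called it in preadipocyte-like cells, and in iWAT 0 members did by either measure. Mmp12 was higher than in WT-Veh in EC-like cells of eWAT (2.44, edgeR adjusted p = 0.0238, 0.0731% of genes) and of iWAT (2.03, edgeR adjusted p = 0.0373, 0.305% of genes). In iWAT these groups sit largely in different EC-like clusters. In 1 of them were 197 and 909 WT-Veh and 0 and 8 ob/ob-Rosi cells, and in another 72 and 180 against 1968 and 1862. Timp1 of progenitor-like cells of eWAT was 1.22-fold higher in ob/ob-Rosi than in WT-Veh and Mmp3 1.14-fold lower. With 2 libraries per group such values leave room for sizeable differences.

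**Figure D5:**
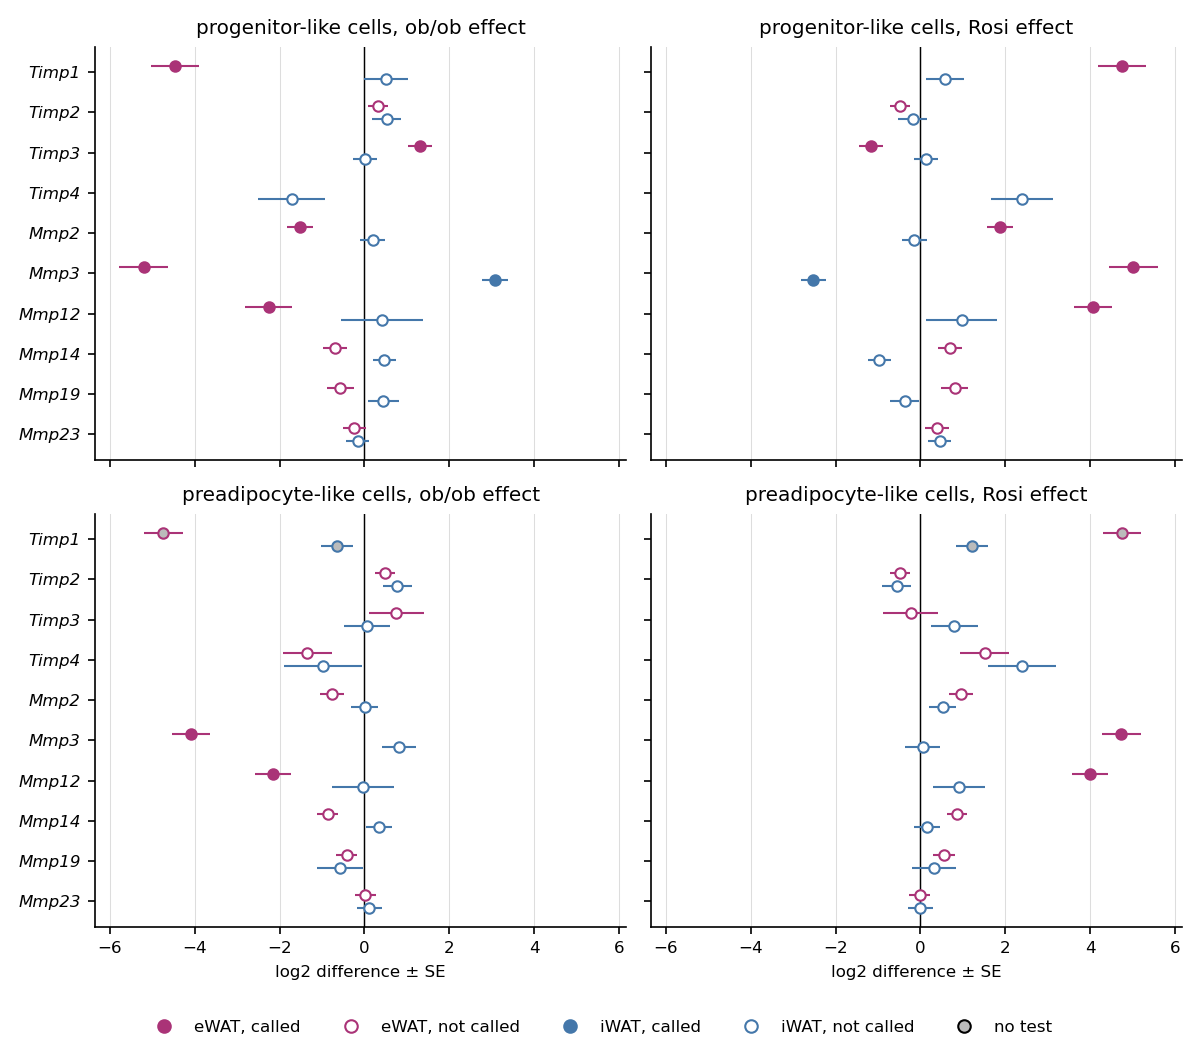
Log2 differences of the members in progenitor-like and preadipocyte-like cells of both depots for ob/ob-Veh against WT-Veh and ob/ob-Rosi against ob/ob-Veh, with bars for 1 SE. Filled points passed the edgeR test, open points did not, and grey points (Timp1 in preadipocyte-like cells) were not tested, and Mmp3 lies at -5.19 in progenitor-like cells of eWAT and at 3.07 in those of iWAT.

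The UMIs of the 4 inhibitors per UMI of the 6 enzymes were 1.75 and 1.67 in WT-Veh, 3.22 and 3.06 in ob/ob-Veh and 1.44 and 1.72 in ob/ob-Rosi in preadipocyte-like cells of eWAT. In progenitor-like cells the ratio was 3.98 and 3.83, 8.80 and 8.54, and 3.26 and 3.19. Both ob/ob-Veh libraries stood above the other 4 in each class, although Timp1 was lowest there, and Timp2 was the most abundant inhibitor. In iWAT the ratio overlapped between WT-Veh and ob/ob-Veh, at 0.973 and 1.34 against 1.32 and 1.402 in preadipocyte-like and 3.36 and 3.28 against 3.17 and 3.37 in progenitor-like cells. Under the ob/ob-Rosi label it was 0.741 and 1.56 in preadipocyte-like cells, the lowest and the highest of the 6, and 3.96 and 3.94 in progenitor-like cells, above the other 4. Transcripts are counted here, not active enzyme.

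A wider list of the pathway held 75 genes in 4 lists: other metalloproteinases, the ADAMTS family (secreted proteases of proteoglycans and their relatives), the ADAM family (membrane proteases) and activators, other inhibitors and partners. In progenitor-like cells of eWAT 44 were tested, 4 were higher and 6 lower in ob/ob-Veh (1.87% and 3.66% of all genes), with a median log2 difference of 0.14 beside -0.01 for all genes tested, and 6 rose and 6 fell with Rosi (3.63% and 1.84% of all genes, median -0.13 beside 0.01). The 10 ob/ob calls became 4 without WT-Veh 1, 0 without WT-Veh 2, 3 without ob/ob-Veh 1 and 7 without ob/ob-Veh 2, and the 12 Rosi calls became 8 to 15 with 1 library left out. Adamts4, an aggrecanase, was 21.6 and 20.7 CPM in WT-Veh, 152 and 145 CPM in ob/ob-Veh and 23.0 and 1.401 CPM in ob/ob-Rosi (2.82, edgeR adjusted p = 0.00241, and -3.46, edgeR adjusted p = 0.000737). It also leads a preadipocyte-like cluster that holds 1433 ob/ob-Veh cells and 5 others. Pcsk6, a proprotein convertase, was 209 and 324, 632 and 714, and 209 and 228 CPM, and Serpine2, an inhibitor of serine proteases, 83.0 and 53.0, 221 and 238, and 136 and 118 CPM, both higher in ob/ob-Veh. In the other direction Adam8, Adamtsl2 and Mmp11 (stromelysin-3) were lower, although the Mmp11 difference (-1.87) was -0.01 with finer clusters and 0.028 when members were allowed among the genes clustered. The ob/ob calls of Adamts4 (2.73), Serpine2 (1.41), Adam8 (-3.08) and Mmp11 (-1.29) were lost without WT-Veh 2, and those of Pcsk6 and Adamtsl2 without any 1 of the 4 libraries compared. The Rosi difference of Adamts4 was -6.70 without ob/ob-Rosi 1 and -2.68 without ob/ob-Rosi 2, and with members allowed among the genes clustered its differences were 0.84 and -1.80 and not called.

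In preadipocyte-like cells of eWAT, 52 of the 75 were tested, with 4 higher and 8 lower in ob/ob-Veh (median 0.26 beside 0.01, where 3.35% of all genes were higher and 4.13% lower) and 8 in each direction with Rosi (-0.05 beside 0.00, where 4.09% of all genes were higher and 3.44% lower). The 12 ob/ob calls became 5 without WT-Veh 1, ob/ob-Veh 1 or ob/ob-Veh 2 and 7 without WT-Veh 2, and the 16 Rosi calls became 5 without ob/ob-Rosi 2, 7 without ob/ob-Veh 1 and 9 without ob/ob-Veh 2. Mmp11 was 80.7 and 134 CPM in WT-Veh, 17.6 and 31.4 CPM in ob/ob-Veh and 89.3 and 90.7 CPM in ob/ob-Rosi (-2.22, edgeR adjusted p = 0.00305). Adam8 was 30.7 and 25.02, 3.32 and 4.20, and 20.9 and 21.8 CPM, with differences of -2.98 and 2.59. Adam8 also leads the LAM-like cluster named above, and the part of macrophage RNA was not tested. Mmp9, gelatinase B, was 1.72 and 1.398, 10.4 and 19.0, and 1.67 and 0.692 CPM (3.14 and -3.62, the first 1.63 and not called with doublets removed), and it leads the PVM-like cluster that holds 3615 of 3671 cells from ob/ob-Veh. Pcsk5, Adamtsl4 (higher in ob/ob-Veh), Adamtsl2 (lower), Adamts7 (higher with Rosi) and Adamts16 (lower with Rosi) were also called, as were Adamts1 (lower with Rosi) and Adamts6 (higher with Rosi) in progenitor-like cells. The ob/ob calls of Pcsk5 and Adamtsl4 were lost without any 1 of the 4 libraries compared, and the Rosi calls of Adamts16, Adamts6, Pcsk5 and Adamts1 without at least 1.

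In iWAT 1 of 50 list genes tested in progenitor-like cells was higher in ob/ob-Veh (0.812% of all genes) and 3 fell with Rosi (1.57%). Adam23 was 14.8 and 14.5 CPM in WT-Veh, 86.0 and 85.0 CPM in ob/ob-Veh and 28.4 and 12.1 CPM in ob/ob-Rosi (2.42, edgeR adjusted p = 0.0265, and -1.96, edgeR adjusted p = 0.0239). The urokinase gene Plau (51.9 and 36.9, 90.3 and 102, 28.4 and 22.7 CPM) and Mmp9 fell with Rosi as well. In preadipocyte-like cells 0 of 46 were called by edgeR for the ob/ob effect (0.198% of all genes in either direction) and 4 by DESeq2, which called 342 of the 8673 genes it tested. With Rosi 4 fell by edgeR (1.91% of all genes), among them Mmp9, Adam33 and Adam15. Each of these iWAT calls was lost without ob/ob-Veh 1 and without ob/ob-Veh 2. Without WT-Veh 1, the library that stood apart, the counts were 8 and 11 in progenitor-like and 4 and 13 in preadipocyte-like cells for the ob/ob and Rosi effects, and without WT-Veh 2 they were 0 and 11, and 1 and 13. They were 0 for the Rosi effect without ob/ob-Rosi 2 in both classes, and 5 and 2 without ob/ob-Rosi 1.

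The genes most like each member across all sums of library and class (69 in eWAT and 51 in iWAT, Pearson r of log2 values, the lower of both depots, out of 8656 genes) are given as a description, since sums share libraries and depth. Genes much like Timp1 were Tmed3 (0.71), Itgbl1 (0.68), Maged2 (0.66) and Mfap2 (0.62). Timp2 was most like Rnase4 (0.85), Igfbp4 (0.84) and Gaa (0.83), Timp3 like Sptbn1 (0.93), Fermt2 (0.91) and Ehd2 (0.91), and Timp4 like 8430408G22Rik (0.88), Flt1 (0.87) and Gpihbp1 (0.86). Among the enzymes, Mmp2 was most like Serpinf1 (0.95), Htra3 (0.92) and Adamts2 (0.92), Mmp14 like Col6a2 (0.92), Fbln2 (0.92) and Adamts2 (0.90), and Mmp23 like Col16a1 (0.89), Aebp1 (0.87) and Gabra3 (0.87). Mmp3 was most like Lum (0.77), Serpina3n (0.75) and Apod (0.75), Mmp12 like F7 (0.83), Atp6v0d2 (0.77) and Ctsd (0.74), and Mmp19 like Ctsz (0.71), Fam20c (0.68) and Lpl (0.68). The lowest likeness was that of Timp1 and Mmp19, and the highest that of Mmp2.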

How the data were processed

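The authors deposited UMI counts of each gene in each cell barcode, 1 matrix a library, made with Cell Ranger 3.0.2 on mm10 after bcl2fastq 2.19.1.403, per the labels. Cells with 700 to 22000 UMIs, 200 to 6000 genes and under 25% mitochondrial UMIs were kept. Cells were clustered per depot (Python 3.11.15, scanpy 1.11.5, leidenalg 0.10.2, 2000 variable genes without the 10 members or the 75 list genes, resolution 1), APC-like cells once more (resolution 0.6), and clusters were named by marker lists. Details of the naming were adjusted after clusters and before groups were compared. Doublets were kept.

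Sums of UMI counts over each class of a library with 20 or more cells were tested with edgeR 4.0.16 (quasi-likelihood, TMM, filterByExpr, all 6 libraries of a depot in 1 fit, R 4.3.3) and Benjamini-Hochberg adjustment over all genes tested. Calls needed an adjusted p up to 0.05 and at least 1.1-fold change. Depot differences come from the interaction in a fit of all 12 libraries, taken as independent. The labels do not say whether both depots came from the same mice, and no pairing by mouse was used. DESeq2 was version 1.42.0. The labels call the libraries biological replicates, and with 2 against 2 an exact permutation test cannot go below p = 0.33, so the edgeR p-values lean on its variance model with 3 residual degrees of freedom. Log2 levels in figures use a pseudocount of 1 CPM. The test was tested on simulated data with known changes. Alternatives were DESeq2, scaling by library size alone, no filter on low counts, cells thinned to 700 UMIs, doublets removed, finer clusters (resolution 2), members (with the list genes) allowed among the genes clustered, a replicate block and each library left out. Depot differences were recomputed only with DESeq2, library size alone, no filter, the replicate block and libraries left out. The members and lists were chosen with earlier results of these data known. Named genes are the members, up to 3 called list genes per direction with the largest change in each APC class, depot and effect, and the most alike genes. Promoters are from RefSeq. One gene that the rule names is not reported here.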

Additional observations from a re-analysis of the deposited data

Results flagged for a closer look

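The results below were picked out because the effect of a group label differed between iWAT and eWAT by the test of the difference itself (edgeR interaction, log2 scale, iWAT minus eWAT). That test takes the libraries as independent, and the labels do not say whether both depots came from the same mice. In progenitor-like cells the ob/ob effect differed for Timp1 by 4.94 (-4.45 in eWAT, 0.50 in iWAT, edgeR adjusted p = 0.0112), for Mmp2 by 1.70 (-1.52 and 0.19, edgeR adjusted p = 0.0465) and for Mmp3 by 8.32 (-5.19 and 3.07, edgeR adjusted p = 0.000117). The Rosi effect differed there for Timp1 by -4.16, for Mmp2 by -2.01, for Mmp14 by -1.66 and for Mmp3 by -7.57. In preadipocyte-like cells Mmp3 differed by 4.97 for the ob/ob effect and by -4.75 for the Rosi effect. In PVM-like cells the ob/ob effect differed by 3.44 for Mmp2, 4.08 for Mmp14 and 5.89 for Mmp3, where 1.05% of genes passed, and APC markers in those cells rose with the ob/ob-Veh label in iWAT as given above. In LAM-like cells the Rosi effect on Mmp12 differed by -2.94, with 69 and 116 ob/ob-Veh cells in eWAT and 45 and 24 in iWAT. Of these 13 differences, both of Mmp3 in progenitor-like cells passed with each library left out. Depot differences were not recomputed with finer clusters, thinned cells, doublets removed or members allowed among the genes clustered. In the last of these settings both Mmp3 differences of progenitor-like cells of eWAT lost their call. The other 11 did not pass without at least 1 library, that of Mmp12 without the iWAT library ob/ob-Veh 1 alone (-2.955), and those of Mmp2 and Mmp14 in progenitor-like cells without most libraries.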

How the results depend on the processing

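The values followed here are those of members called in the main setting, so gained calls are not counted. Timp1 in preadipocyte-like cells was followed too and judged by direction and its spread between libraries. Of 356 such values under the alternatives that keep all libraries, 323 were the same by these measures, 31 lost their call, 1 moved and 1 turned. With 1 library left out, 202 of 270 were the same, 4 moved and 64 lost their call. The Timp1 difference in preadipocyte-like cells of iWAT turned to 0.16 (from -0.65), and that of Mmp11 in progenitor-like cells of eWAT to 0.028 (from -1.87), when members were allowed among the genes clustered. Counts of members called follow, first for the ob/ob effect and then for the Rosi effect. In progenitor-like cells of eWAT (5 and 5), finer clusters gave 3 and 3, members allowed in the clustering 2 and 2, and thinned cells 3 for the ob/ob effect. In EC-like cells of eWAT (3 and 4), no filter on low counts gave 5 for the ob/ob effect and thinned cells 2 for the Rosi effect. In PVM-like cells of eWAT (4 and 3), thinned cells gave 1 for the ob/ob effect and no filter 7 and 5. DESeq2 gave 4 for the Rosi effect in preadipocyte-like cells of eWAT (2). In progenitor-like cells of iWAT (1 and 1), no filter gave 2 and 3, and DESeq2 3 and thinned cells 2 for the Rosi effect. In preadipocyte-like cells of iWAT no filter gave 1 for the Rosi effect (0). In EC-like cells of iWAT (0 and 1), DESeq2 gave 2 for the ob/ob effect, thinned cells 2 and 0, removed doublets 1 and 0, no filter 3 and 3, and members allowed 1 for the ob/ob effect. In PVM-like cells of iWAT no filter gave 7 for the ob/ob effect (4). Depot differences in preadipocyte-like cells (1 and 1) became 2 and 2 with no filter and 2 for the Rosi effect with DESeq2. The cause of these changes was not tested.

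With each library left out in turn, counts of members ranged, for the ob/ob and Rosi effects, over 2 to 5 and 4 to 6 in progenitor-like, 1 to 3 and 2 to 4 in preadipocyte-like, 2 to 6 and 2 to 6 in EC-like and 1 to 4 and 1 to 3 in PVM-like cells of eWAT. In iWAT they ranged over 0 to 1 and 0 to 3, 0 to 0 and 0 to 1, 0 to 3 and 0 to 2, and 0 to 5 and 0 to 3 in the same classes. Depot differences ranged over 1 to 3 and 1 to 4 in progenitor-like and 0 to 1 and 0 to 1 in preadipocyte-like cells.

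Each group has replicate numbers 1 and 2, so any 2 groups share only 2 pairs, and the labels tie no number to a shared litter or day. Correlations of deviations were 0.14 to 0.34 in eWAT. In iWAT they were 0.45 to 0.61 between WT-Veh and ob/ob-Rosi and -0.02 to 0.11 for pairs with ob/ob-Veh. For example, 1 progenitor-like cluster of iWAT held 112 and 751 cells of WT-Veh 1 and ob/ob-Rosi 1, and 6 and 23 of WT-Veh 2 and ob/ob-Rosi 2. The main tests did not use the replicate number. With the replicate block, counts were 4 and 5 in preadipocyte-like, 7 for the ob/ob effect in EC-like and 7 and 5 in PVM-like cells of eWAT. In iWAT the block gave 3 for the Rosi effect in progenitor-like, 1 for it in preadipocyte-like, and 3 and 2 in EC-like cells, and 2 depot differences for the Rosi effect in preadipocyte-like cells.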
